A study of Mus musculus with 11 samples.

Results

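Armc4, Ccdc151, Ccdc114, Ttc25, Ccdc63 and Cfap53 encode proteins that fix outer dynein arms to the axoneme, and they were taken from the table of testis counts by their gene symbols in the GENCODE vM21 annotation. These 6 docking genes were found among 23074 genes counted, and all 6 were among the 15745 genes with enough reads to be tested. RNA was sequenced from decapsulated testes of 5 wild type and 6 Rfx2-/- mice at postnatal day 21. All mice were of a mixed C57BL/6, 129/Sv and FVB/N background. The wild type mice carried intact Rfx2, and the Rfx2-/- mice lacked an exon coding for much of the DNA binding domain of this transcription factor. According to the methods, the allele was targeted in R1 ES cells, Cre under the ACTB promoter acted in all tissues rather than in germ cells alone, and the mixed background line kept its neomycin cassette. The series describes the mice of each genotype as independent of each other.

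Outer dynein arms are the motors that make the axoneme of a motile cilium or sperm flagellum beat. They are preassembled in the cytoplasm and are then held at regular intervals on the doublet microtubules by a docking complex. In the germ line this axoneme is built in spermatids, but transcripts of many of its proteins appear already in pachytene spermatocytes. ARMC4, CCDC151, CCDC114 and TTC25 are components of the docking complex of motile cilia. CCDC63 is a paralogue of CCDC114 known for its role in the sperm flagellum, and CFAP53 lies within the doublet microtubule and helps to hold the arm and its docking complex.

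RFX proteins bind the X-box, whose palindromic form (GTTNCC, 2 free letters, GGNAAC) was searched here on both strands. RefSeq promoters, from 250 bases before to 50 bases after a gene's start, were matched for 2 of the 6 genes, Ccdc151 and Ccdc114. They are shown because no others were matched, so docking genes with lower or overlapping levels could not be set beside them. In both genes the Rfx2-/- levels lay above all wild type levels. Capitals mark the best match to the motif, each sequence is on the strand of its gene in GRCm38.p6, and positions are chr9:22002585-22002884 on the minus strand for Ccdc151 and chr7:45923965-45924264 on the plus strand for Ccdc114.
Ccdc151: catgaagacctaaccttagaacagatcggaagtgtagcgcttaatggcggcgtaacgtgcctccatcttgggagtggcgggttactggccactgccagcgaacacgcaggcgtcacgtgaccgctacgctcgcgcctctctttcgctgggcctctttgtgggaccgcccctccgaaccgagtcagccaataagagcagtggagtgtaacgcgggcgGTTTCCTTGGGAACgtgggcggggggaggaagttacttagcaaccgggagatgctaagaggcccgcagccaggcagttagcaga
Ccdc114: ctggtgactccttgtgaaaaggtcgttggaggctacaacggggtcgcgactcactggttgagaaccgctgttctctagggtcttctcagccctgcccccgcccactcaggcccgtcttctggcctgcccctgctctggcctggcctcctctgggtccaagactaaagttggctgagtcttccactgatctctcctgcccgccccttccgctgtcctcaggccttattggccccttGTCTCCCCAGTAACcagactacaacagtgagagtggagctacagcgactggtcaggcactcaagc

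The match of Ccdc151 had all 10 fixed letters of the motif and lay 34 to 21 bases before the start. An exact match of this kind was present in 148 of 32851 RefSeq promoters, or 0.451%. The position of the match, 22002655 to 22002668 on chromosome 9, falls in the 172 nt between the start of Ccdc151 and the start of Prkcsh, which is transcribed the other way. In Ccdc114, the best match had 8 of the 10 fixed letters and lay 15 to 2 bases before the RefSeq start, itself 143 nt inside the gene as GENCODE draws it. Matches with at most 2 mismatches were present in 13.927% of promoters. Sequence matches describe letters only, and binding was not analysed here.

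Total counts were between 26925157 and 29769483 per wild type mouse and between 22232097 and 27116903 per Rfx2-/- mouse, so that a floor of 3 counts was worth 0.0852 to 0.139 CPM. CPM are counts relative to library sizes scaled by TMM. Rfx2 itself averaged 326 ± 118 CPM (SD, n = 5) in wild type against 304 ± 14.6 CPM (SD, n = 6) in Rfx2-/- mice, and counts over a whole gene do not show the deleted exon. Markers of late germ cell stages differed widely between mice. Summed over 14 round spermatid markers, CPM ranged from 10.1 to 559 in wild type and from 34.4 to 716 in Rfx2-/- mice. The sum over 12 pachytene spermatocyte markers was 3651 and 3483 CPM for the wild type mice numbered 3 and 5, between 7060 and 8008 CPM in the other wild type mice, and between 7325 and 9524 CPM in Rfx2-/- mice. By edgeR no marker of either list was called at 0.01, but 7 of the 12 pachytene markers were higher in Rfx2-/- mice at an unadjusted p under 0.05, as were 18.1% of all tested genes (3 markers were called by DESeq2 and 1 by voom). None of the round spermatid markers was past that threshold by any of the 3 tools. Where no covariate is given, the part of these markers in a result was not tested. Sums of early meiotic, spermatogonia, Sertoli cell, Leydig cell, peritubular and vascular, and macrophage markers overlapped between genotypes. By edgeR 1 Leydig cell marker was called lower (2 by DESeq2 and by voom) and no other marker of these lists, and DESeq2 also called 1 Sertoli cell marker lower. At an unadjusted p under 0.05, where 23.7% of all tested genes were lower, so were 8 of 10 Sertoli cell, 4 of 5 macrophage, 3 of 8 spermatogonia, 2 of 6 Leydig cell, 2 of 5 peritubular and vascular and 1 of 8 early meiotic markers, and 1 early meiotic marker was higher. Of 9 markers of multiciliated epithelium, 3 passed the filter (Foxj1, Ccno and Deup1, which germ cells also express). None was called by edgeR or voom and 1 was called lower by DESeq2, 1 was lower at an unadjusted p under 0.05, and Mcidas, Gmnc, Sntn, Scgb1a1, Cdhr3 and Fam216b reached at most 9, 6, 4, 4, 20 and 1 counts in any mouse. The sum of these 9 markers was 14.9 to 180 CPM in wild type and 22.3 to 166 CPM in Rfx2-/- mice.

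The 6 docking genes did not move together in the absence of RFX2. Cfap53 fell, and it was the single docking gene called lower in edgeR's quasi-likelihood test, with 0.01 as the limit for p after Benjamini-Hochberg adjustment over all tested genes. Of all tested genes 1.94% were called lower, and 1.04% were lower with a change of over 2-fold, which Cfap53 also passed. None was called higher by edgeR (0.73% of all tested genes, or 0.216% with over 2-fold), while DESeq2 and voom each called 1, Ccdc151. Of all 15745 tested genes DESeq2 called 1146 higher and voom 367. At an unadjusted p under 0.05, 4 docking genes were past the threshold, Armc4 and Cfap53 lower (23.7% of all tested genes) and Ccdc151 and Ccdc114 higher (18.1%). At an adjusted p of at most 0.05, Armc4 joined Cfap53 on the lower side (8.78% of all tested genes) and Ccdc151 stood on the higher side (6.15%). In 4 of the 6 genes the values of the genotypes did not overlap, 2 of them lower (5.2% of all tested genes) and 2 higher (6.5%). The median log2 fold change was 0.14 over the 6 genes and -0.05 over all tested genes.

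**Figure D1:**
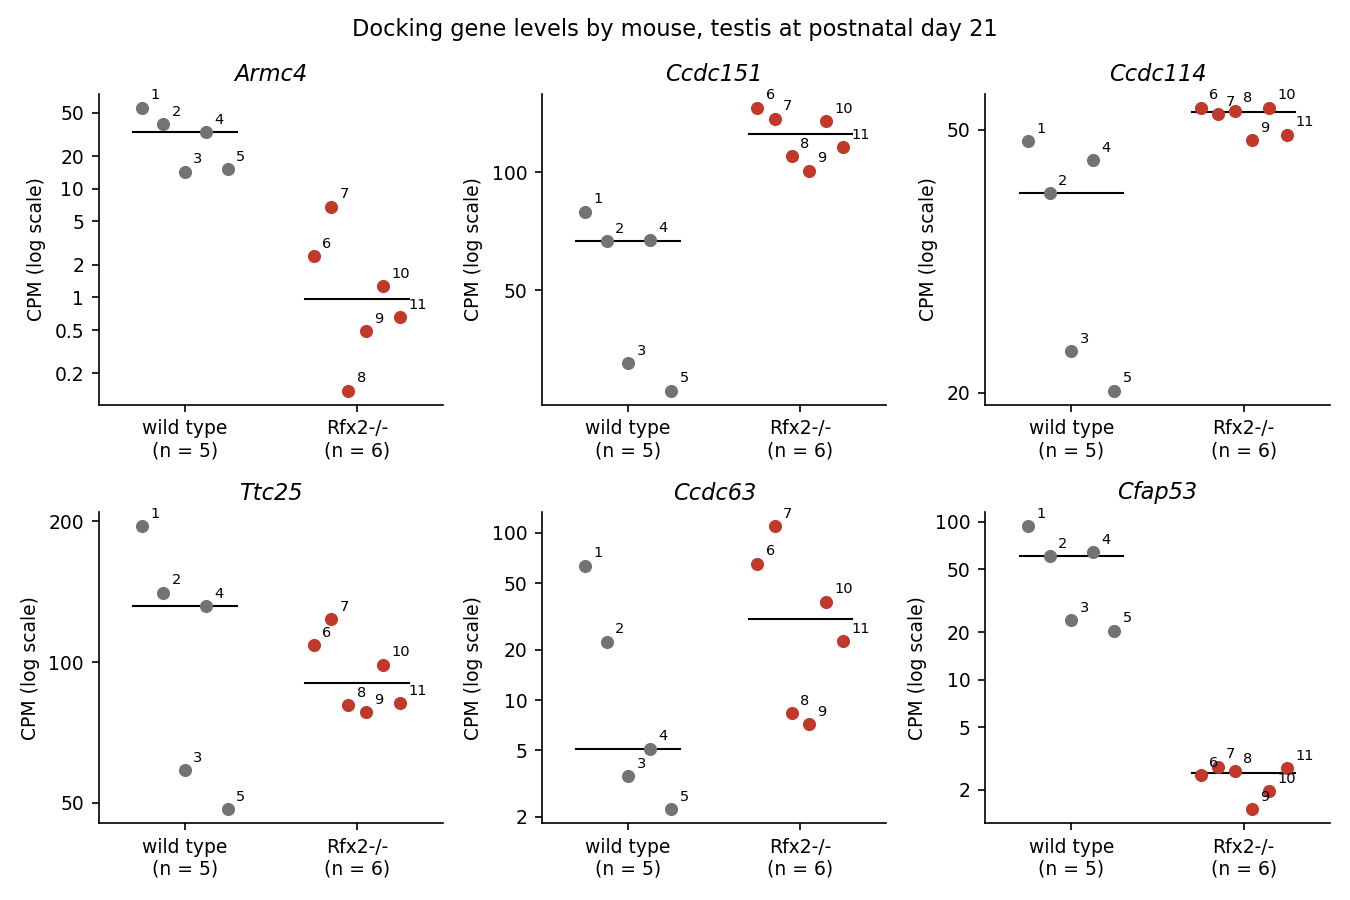
Level of each docking gene in CPM (log scale, range set per panel) in 5 wild type (grey) and 6 Rfx2-/- (red) mice, with the replicate number beside each point and the median of the genotype as a line. All Rfx2-/- points lie below the wild type points for Armc4 and Cfap53 and above them for Ccdc151 and Ccdc114, while those of Ttc25 and Ccdc63 overlap with wild type.

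Cfap53 (ENSMUSG00000035394, chromosome 18 from 74283090 to 74359986 of GRCm38, plus strand) had the largest fitted decrease of the 6 in edgeR. By voom it fell less than Armc4 (log2 fold change -4.65 against -5.16). Its levels in wild type replicates 1 to 5 were 93.8, 60.6, 23.7, 64.2 and 20.4 CPM, and those in Rfx2-/- mice had a lowest value of 1.51, a median of 2.55 and a highest value of 2.81 CPM. Every Rfx2-/- mouse thus lay far below the lowest wild type mouse. Wild type mice averaged 52.5 ± 30.7 CPM (SD, n = 5) against 2.35 ± 0.514 CPM (SD, n = 6) in Rfx2-/- mice, or 22.3-fold lower in the fit (log2 fold change -4.48, SE 0.41, edgeR quasi-likelihood adjusted p = 0.000134). Between 34 and 68 reads remained on the gene in each Rfx2-/- mouse, all above the floor of 3 counts. In bulk testis RNA, fewer cells of a type and less RNA per cell cannot be told apart.

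Armc4 (ENSMUSG00000061802, chromosome 18 from 7088209 to 7297936, minus strand), whose armadillo repeat protein belongs to the docking complex, was lower by a similar factor but varied much more between Rfx2-/- mice. In wild type, replicates 1 to 5 had 55.9, 39.3, 14.4, 33.0 and 15.2 CPM. Rfx2-/- mice had a lowest value of 0.139, a median of 0.957 and a highest value of 6.85 CPM, all below wild type. The lowest of these, in replicate 8, was a count of 3 and thus at the floor, and the highest, in replicate 7, was a count of 166. The means were 31.5 ± 17.4 CPM (SD, n = 5) and 1.96 ± 2.52 CPM (SD, n = 6), and the fitted log2 fold change was -3.99 (SE 0.82, edgeR quasi-likelihood adjusted p = 0.0147), which did not pass the threshold of 0.01. Without Rfx2-/- replicate 7 the log2 fold change was -4.98 and the adjusted p from the same edgeR test 0.00294. The coefficient of variation among Rfx2-/- mice was 128% for Armc4.

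Ccdc151 (ENSMUSG00000039632, chromosome 9 from 21989871 to 22002634, minus strand), the coiled-coil docking gene with the exact X-box letters shown above, had higher levels in every Rfx2-/- mouse than in any wild type mouse. Its levels in wild type replicates 1 to 5 were 79.3, 66.8, 32.6, 67.2 and 27.8 CPM, against a lowest value of 101, a median of 125 and a highest value of 146 CPM in Rfx2-/- mice. Mean levels were 54.7 ± 23.0 CPM (SD, n = 5) and 124 ± 17.7 CPM (SD, n = 6), a fitted 2.27-fold difference (log2 fold change 1.18, SE 0.26) with edgeR quasi-likelihood adjusted p = 0.0204, short of the threshold. Wild type replicates 3 and 5, which also had the lowest pachytene marker sums, were its lowest mice. With both left out, an alternative added once the data had been seen, the difference was 0.81 on the log2 scale and the adjusted p from the same edgeR test 0.00336. With the pachytene marker score as a covariate, also added later, it was 0.56 and the adjusted p 0.000116. Prkcsh, the glucosidase II beta subunit gene that starts 172 nt away in the other direction, was at 129 ± 13.0 CPM (SD, n = 5) and 132 ± 7.11 CPM (SD, n = 6), with an edgeR adjusted p = 0.764. It was named after its values were seen.

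Ccdc114 (ENSMUSG00000040189, chromosome 7 from 45924072 to 45948963, plus strand), a docking gene whose loss in people removes outer arms from airway cilia, was very even among Rfx2-/- mice. The 5 wild type mice had, in order of replicate, 48.0, 40.1, 23.1, 45.0 and 20.1 CPM, against a lowest value of 48.3, a median of 53.1 and a highest value of 54.0 CPM in Rfx2-/- mice. The genotypes did not overlap, but the gap between the highest wild type and the lowest Rfx2-/- mouse was smaller than the spread within either. Means were 35.3 ± 12.8 CPM (SD, n = 5) and 52.0 ± 2.56 CPM (SD, n = 6), with a log2 fold change of 0.56 (SE 0.21, edgeR quasi-likelihood adjusted p = 0.0795). With wild type replicates 3 and 5 left out the log2 fold change was 0.24, and with the pachytene score it was 0.06 (edgeR adjusted p = 0.0632 and 0.669). An antisense gene, Gm45442, overlaps Ccdc114 and was not counted, and without a stated strand setting reads of the pair cannot be told apart.

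Ccdc63 (ENSMUSG00000043036, chromosome 5 from 122108040 to 122140823, minus strand), the paralogue used in sperm, varied widely between mice of either genotype. In wild type, replicates 1 to 5 had 63.5, 22.3, 3.49, 5.12 and 2.23 CPM, and Rfx2-/- mice had a lowest value of 7.16, a median of 30.6 and a highest value of 109 CPM. The genotypes overlapped, and values within one genotype spread over more than an order of magnitude. The means were 19.3 ± 26.0 CPM (SD, n = 5) and 41.9 ± 39.6 CPM (SD, n = 6), with a log2 fold change of 1.12 (SE 0.97, edgeR quasi-likelihood adjusted p = 0.382). Without wild type replicate 1 this was 2.34, and without Rfx2-/- replicate 7 it was 0.56, neither of them called. With the round spermatid marker score as a covariate it was 0.66 (SE 0.15, edgeR quasi-likelihood adjusted p = 0.0109), past 0.05 but not past 0.01. The gene shares 60 nt of exons with Myl2 on the opposite strand. The authors' rule drops reads on exons of more than 1 gene. Without a stated strand setting it is not known whether reads were dropped there.

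Ttc25 (ENSMUSG00000006784, chromosome 11 from 100545607 to 100572568, plus strand) encodes the tetratricopeptide repeat protein of the complex and did not separate the genotypes. In wild type, replicates 1 to 5 had 195, 141, 58.7, 132 and 48.4 CPM, and Rfx2-/- mice had a lowest value of 78.0, a median of 90.2 and a highest value of 123 CPM, which all lay inside the wild type range. Mean levels were 115 ± 61.3 CPM (SD, n = 5) and 95.2 ± 18.3 CPM (SD, n = 6), with a log2 fold change of -0.27 (SE 0.32, edgeR quasi-likelihood adjusted p = 0.527). Its sign rested on 1 mouse, since the log2 fold change became 0.0059 once wild type replicate 1 was left out. With the pachytene score as a covariate it was -1.03 with an edgeR adjusted p = 1.88e-06, and with wild type replicates 3 and 5 left out it was -0.70 with an adjusted p = 0.0327. Whether Ttc25 was called thus depended on whether the pachytene marker score entered the model.

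Levels of different genes were compared per length, as RPKM over the merged exons of protein coding transcripts in GENCODE vM21, which may differ from the gene models the authors counted on. In wild type testis, mean RPKM ran from Ttc25 at 40.4 over Cfap53 at 27.8, Ccdc151 at 24.9, Armc4 at 8.86 and Ccdc63 at 8.11 to Ccdc114 at 6.75. Ttc25 exceeded Cfap53 in 5 of 5 wild type mice and Ccdc151 exceeded Armc4 in 5 of 5, but Cfap53 exceeded Ccdc151 in only 3 of 5, Armc4 exceeded Ccdc63 in 4 of 5 and Ccdc63 exceeded Ccdc114 in 2 of 5, so these neighbours had no fixed order. Among all tested genes the wild type levels stood between the 47.7th percentile, for Ccdc114, and the 88th, for Ttc25. In Rfx2-/- testis the order was Ccdc151 at 56.5 RPKM, Ttc25 at 33.5, Ccdc63 at 17.6, Ccdc114 at 9.95, Cfap53 at 1.25 and Armc4 at 0.552. Ccdc151 exceeded Ttc25 in 6 of 6 Rfx2-/- mice, and Ccdc114 exceeded Cfap53 in 6 of 6. Ttc25 exceeded Ccdc63 in 5 of 6, Ccdc63 exceeded Ccdc114 in 4 of 6 and Cfap53 exceeded Armc4 in 5 of 6, so these neighbours had no fixed order either.

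Shares of the summed RPKM of the 6 genes were steady among wild type mice for Ttc25, Cfap53 and Armc4. Those of Ccdc151 and Ccdc114 varied more, and that of Ccdc63 varied most. Cfap53 made up 21.7 to 26.0% of this sum in wild type mice and 0.836 to 1.49% in Rfx2-/- mice. Armc4 went from 6.97 to 8.60% in wild type to 0.0416 to 1.17% in Rfx2-/- mice. The share of Ccdc151 was 17.5 to 25.6% in wild type and 37.7 to 53.5% in Rfx2-/- mice, so that it was the most abundant docking transcript in each Rfx2-/- mouse. Ttc25 held 33.4 to 35.6% and 26.3 to 31.7% of the sum in the 2 genotypes. Ccdc114 and Ccdc63, whose shares overlapped between genotypes, held 4.46 to 7.79% and 1.64 to 12.9% in wild type and 6.13 to 10.9% and 3.47 to 27.8% in Rfx2-/- mice.

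**Figure D2:**
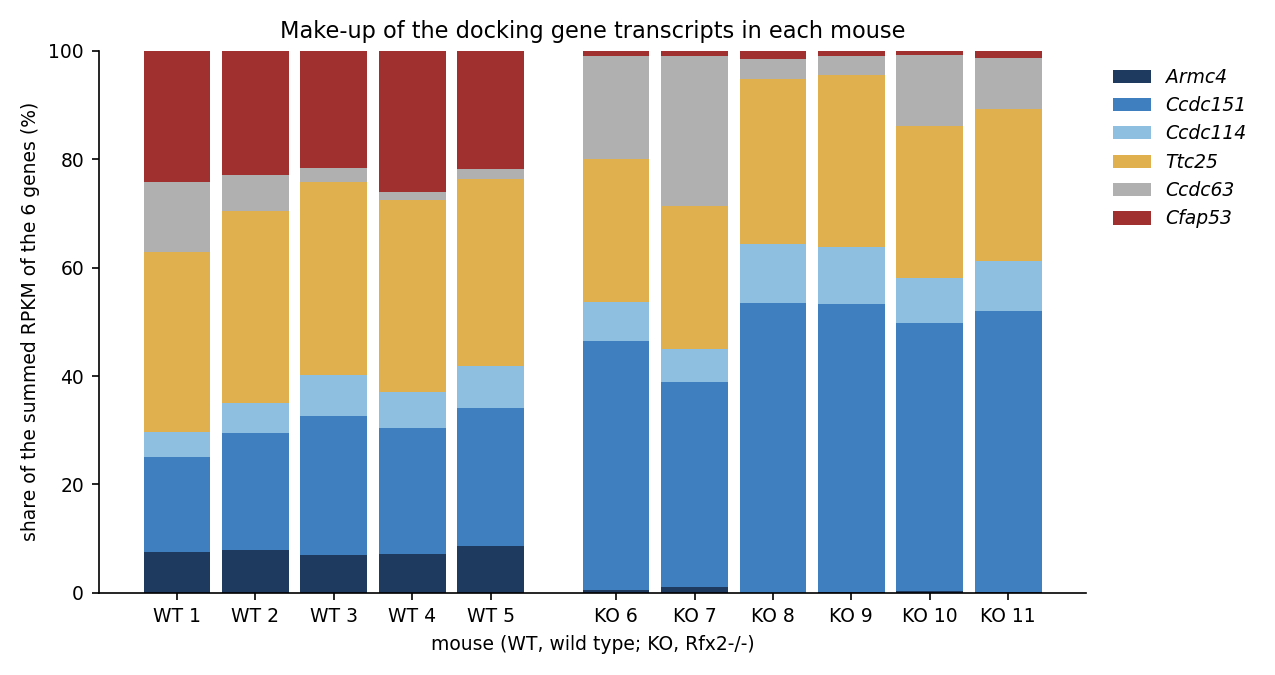
Share in percent of each docking gene in the summed RPKM of the 6 genes, 1 bar per mouse, with wild type (WT) replicates 1 to 5 and Rfx2-/- (KO) replicates 6 to 11. Cfap53 and Armc4 take up 21.7 to 26.0% and 6.97 to 8.60% of the bar in wild type mice and are thin lines at the top and bottom in Rfx2-/- mice.

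A ratio of counts within a mouse needs no scaling between libraries, and it asks whether a pair of docking genes changed unequally. Mean log2 ratios (count + 0.5) were compared between genotypes for all 15 pairs by two-sided exact permutation tests over all 462 splits of the mice, for which the smallest possible p is 0.00216. After Benjamini-Hochberg adjustment over the 15 pairs, 11 were called at 0.01, and in these 11 the genotypes did not overlap. The pairs share genes and are not independent of each other. Pairs of other tested genes were not examined, so the 11 pairs have no share over all genes beside them. Among single tested genes, 5.2% were lower and 6.5% higher in Rfx2-/- mice without overlap. Cfap53 and Armc4 had lost ground to each of the other 4 genes. Relative to Cfap53, the log2 ratio of Ttc25 was 1.17 ± 0.12 (SD, n = 5) in wild type and 5.34 ± 0.35 (SD, n = 6) in Rfx2-/- testis, a difference of 4.16 (exact permutation p = 0.00216, adjusted p = 0.00406). For Armc4 relative to Ttc25 the log2 ratio was -1.87 ± 0.14 (SD, n = 5) and -6.51 ± 1.63 (SD, n = 6), a difference of -4.64 (exact permutation p = 0.00433, adjusted p = 0.0059).

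Differences among Ccdc151, Ccdc114 and Ttc25 were smaller, but in each of their pairs the genotypes did not overlap. The log2 ratio of Ccdc151 to Ttc25 was -0.999 ± 0.20 (SD, n = 5) in wild type and 0.39 ± 0.13 (SD, n = 6) in Rfx2-/- testis, a difference of 1.39 (exact permutation p = 0.00216, adjusted p = 0.00406). Ccdc151 to Ccdc114 differed by 0.65 and Ccdc114 to Ttc25 by 0.75 on the log2 scale (exact permutation p = 0.00216 and 0.00433, adjusted p = 0.00406 and 0.0059). Hence Ccdc151 stood higher against Ccdc114, and both stood higher against Ttc25, whatever the scaling of the libraries. Of the 4 pairs not called, 3 paired Ccdc63 with Ccdc151, Ccdc114 or Ttc25 (differences of -0.30, -0.94 and -1.69, exact permutation p from 0.0649 to 0.766). The remaining pair was Armc4 to Cfap53, at -0.70 ± 0.19 (SD, n = 5) and -1.17 ± 1.83 (SD, n = 6), a difference of -0.48 (exact permutation p = 0.591, adjusted p = 0.633). These 2 genes kept a narrow ratio in wild type mice and a wide one in Rfx2-/- mice, and the test does not show that they fell equally. With any 1 Rfx2-/- mouse left out, the smallest adjusted p was 0.0108, so that no pair was called at 0.01, and the same number of pairs, 11, was called at 0.05. The 252 splits then left allow no exact permutation p below 0.00794, so this loss of calls does not show dependence on any 1 mouse.

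**Figure D3:**
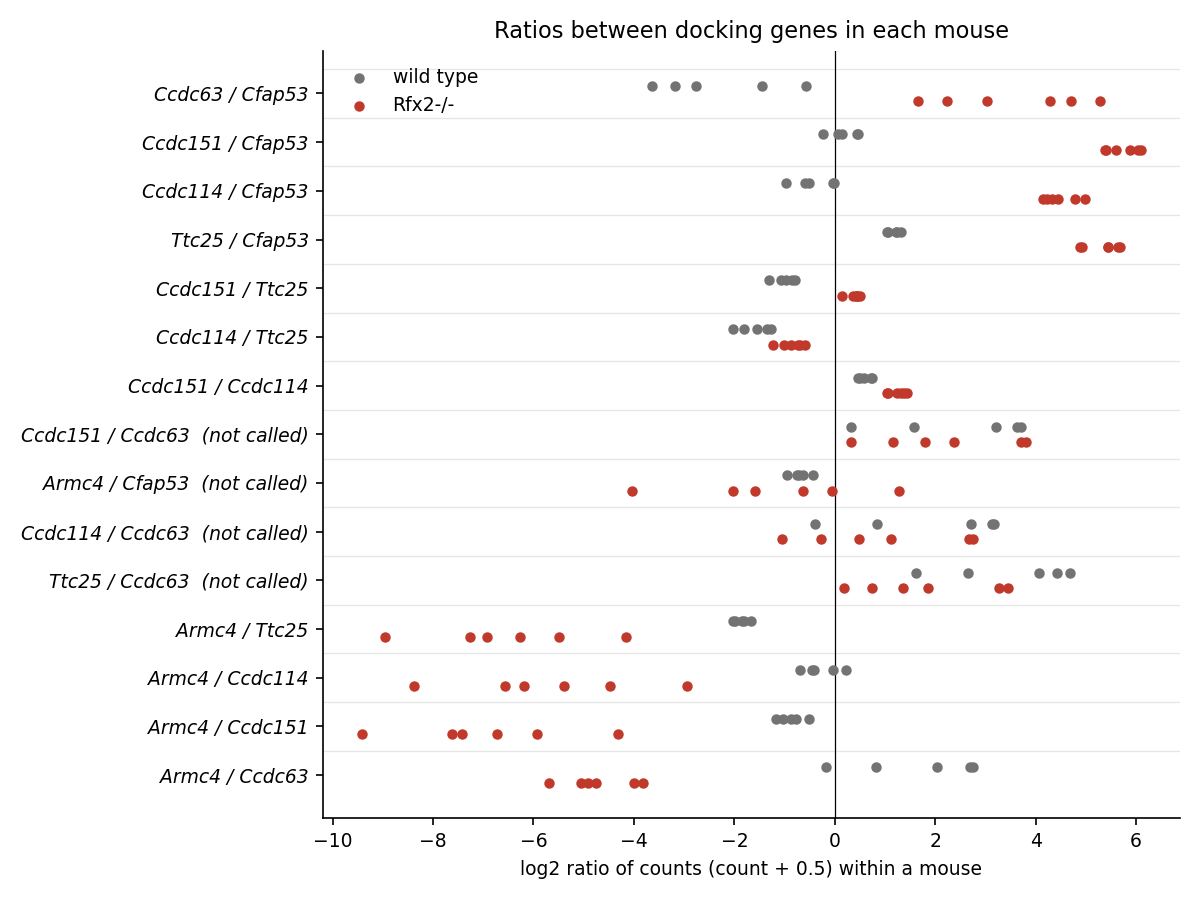
Log2 ratio of counts (count + 0.5) of 2 docking genes in each mouse, 1 line per pair, wild type in grey and Rfx2-/- in red. The genotypes form separate groups of points in 11 pairs, and they overlap in the 4 marked as not called.

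Within a genotype, the order of the mice by each docking gene was set beside their order by the stage markers. In Rfx2-/- mice, the remaining Armc4 had the same order of mice as the sum of the round spermatid markers, with replicate 7 highest and replicate 8 lowest, in 6 of 6 places, against 3 of 5 in wild type mice. Cfap53 in the same mice matched in 1 of 6 places and stayed between 1.51 and 2.81 CPM although the marker sum went from 34.4 to 716 CPM. In wild type mice, Ttc25 and Ccdc63 shared the order of the round spermatid markers in 5 of 5 places (4 of 6 for each in Rfx2-/- mice), and Ccdc151, Ccdc114 and Cfap53 shared that of the pachytene markers in 5 of 5 places (2 of 6 for each in Rfx2-/- mice). Between the marker lists, the order of wild type mice differed only in replicates 2 and 4, with pachytene sums of 7060 and 7062 CPM. A near tie of this kind does not separate genes that followed one list from genes that followed the other. Ccdc63 was high where the round spermatid sum was high in both genotypes. Rfx2-/- replicate 11 and wild type replicate 2, with marker sums of 101 and 138 CPM, had 22.5 and 22.3 CPM of Ccdc63. Rfx2-/- replicate 8 and wild type replicate 4, with sums of 34.4 and 27.3 CPM, had 8.37 and 5.12 CPM of it. Rfx2-/- replicate 7 and wild type replicate 1, with sums of 716 and 559 CPM, had 109 and 63.5 CPM. Each pair sets 1 mouse against 1. In Rfx2-/- replicate 11 and wild type replicate 2, Armc4 was at 0.653 and 39.3 CPM and Cfap53 at 2.74 and 60.6 CPM. The values from a single mouse share library and depth, and these orders are given as a description.

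**Figure D4:**
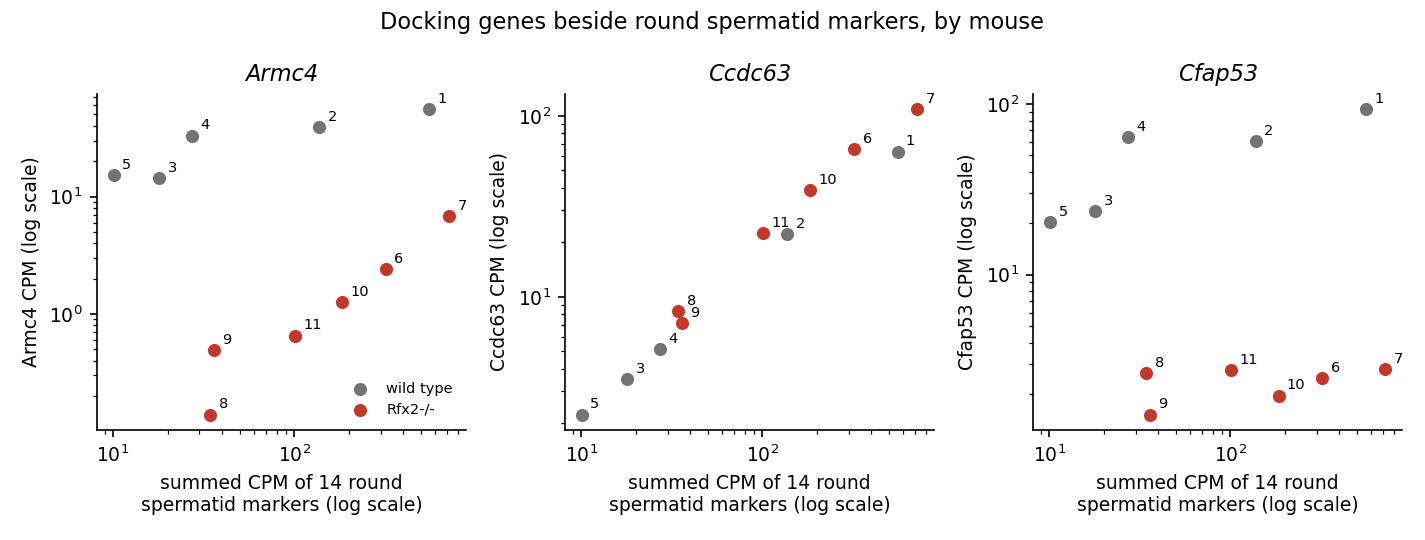
CPM of Armc4, Ccdc63 and Cfap53 (vertical, log scale) against the summed CPM of 14 round spermatid markers (horizontal, log scale) in each mouse, numbered by replicate, wild type in grey and Rfx2-/- in red. Ccdc63 climbs with the marker sum in both genotypes, from 2.23 to 63.5 CPM in wild type and from 7.16 to 109 CPM in Rfx2-/- mice, the Rfx2-/- points of Armc4 climb from 0.139 to 6.85 CPM below the wild type points, and those of Cfap53 stay at 1.51 to 2.81 CPM.

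For each docking gene, the tested genes with the most similar pattern over the 11 mice were sought by the root mean square difference of log2 CPM centred on each gene's mean. Cfap53 was nearest to Ankmy1 and Cfap161, at differences of 0.206 and 0.268. Armc4 was nearest to Gm4871 and Lkaaear1, at 0.367 and 0.562, the loosest matches of the 6. The closest matches were those of Ccdc114, to Smg9 and 1700029P11Rik, at 0.0522 and 0.0530. This measure is not scaled by how much a gene varies. Over the 11 mice the SD of log2 CPM was 2.77 for Armc4 and 0.50 for Ccdc114. Ccdc151 was nearest to 5330417C22Rik and Cds1 (0.0671 and 0.0786), Ttc25 to Ccdc96 and Dpy19l2 (0.0781 and 0.0809), and Ccdc63 to Il31 and Fam187b (0.144 and 0.170). No docking gene was among the nearest genes of another.

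Of the other genes of the outer arm pathway, 1 motor subunit and 1 preassembly factor were called lower by edgeR and none was called higher. Over all tested genes edgeR called 1.94% lower and 0.73% higher. Of the 9 motor subunits, all tested, 7 had a fitted log2 fold change above 0, and the median was 0.52 against -0.05 over all tested genes. The share of all tested genes above 0 was not counted. Dnah5, Dnah9 and Dnah11 averaged only 0.0596, 0.180 and 0.0533 RPKM in wild type. Dnah5 and Dnah9 are among those above 0, at 0.57 (SE 0.54) and 0.89 (SE 0.60). Besides the 1 motor subunit called lower by all 3 tools, 1 was higher at an unadjusted p under 0.05 in edgeR (18.1% of all tested genes). DESeq2 and voom each called 1 higher, against 1146 and 367 of all 15745 tested genes. Each of them had 4 higher at an unadjusted p under 0.05, for which their share over all genes was not counted. The gene called lower was Dnaic2, an intermediate chain that joins the motor to its docking site. Dnaic2 levels were 105, 73.1, 23.0, 72.7 and 13.1 CPM in the 5 wild type mice and 0.647 to 1.44 CPM in Rfx2-/- mice, with no overlap. The means were 57.4 ± 38.4 CPM (SD, n = 5) and 0.945 ± 0.297 CPM (SD, n = 6), a log2 fold change of -5.91 (SE 0.56, edgeR quasi-likelihood adjusted p = 0.000148). Dnaic1, its partner intermediate chain, was at 95.6 ± 38.7 CPM and 188 ± 29.0 CPM, with an edgeR adjusted p = 0.0309. The low values of Cfap53 and Armc4 thus stood beside those of 1 of 9 motor subunits.

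Among 10 preassembly factors, which build the arms in the cytoplasm, 1 was called lower and none higher by edgeR, with a median log2 fold change of -0.09. DESeq2 called 1 lower and 2 higher and voom 3 lower and 2 higher. Of all 15745 tested genes DESeq2 called 911 lower and 1146 higher, and voom 682 lower and 367 higher. At an unadjusted p under 0.05 edgeR had 3 lower (23.7% of all tested genes) and 2 higher (18.1%). The gene called by edgeR was Zmynd10, which averaged 344 ± 128 CPM (SD, n = 5) in wild type against 126 ± 9.12 CPM (SD, n = 6) in Rfx2-/- mice (log2 fold change -1.45, SE 0.22, edgeR quasi-likelihood adjusted p = 0.00263). Of 4 docking and attachment partners, 3 were tested and none was called by edgeR, against 3 by DESeq2 and 2 by voom. At an unadjusted p under 0.05 all 3 were past the threshold, with Mns1 and Ccdc103 higher (18.1% of all tested genes) and Daw1 lower (23.7%). Mns1, a protein inside the doublet microtubule that takes part in arm attachment, was at 213 ± 73.0 CPM and 443 ± 44.6 CPM with an edgeR adjusted p = 0.0127. Daw1, which helps to carry arms into the cilium, was at 41.0 ± 17.0 CPM and 19.1 ± 2.19 CPM with an edgeR adjusted p = 0.0217. Efcab1, a calcium binding partner of the docking complex, had too few reads to be tested, with 45, 15, 16, 10 and 15 counts in wild type mice and 4 to 6 counts in Rfx2-/- mice. Dnah5, Dnah9, Dnah11, Dnaic1, Mns1, Ccdc103, Daw1 and Efcab1 were named after their values were seen.

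**Figure D5:**
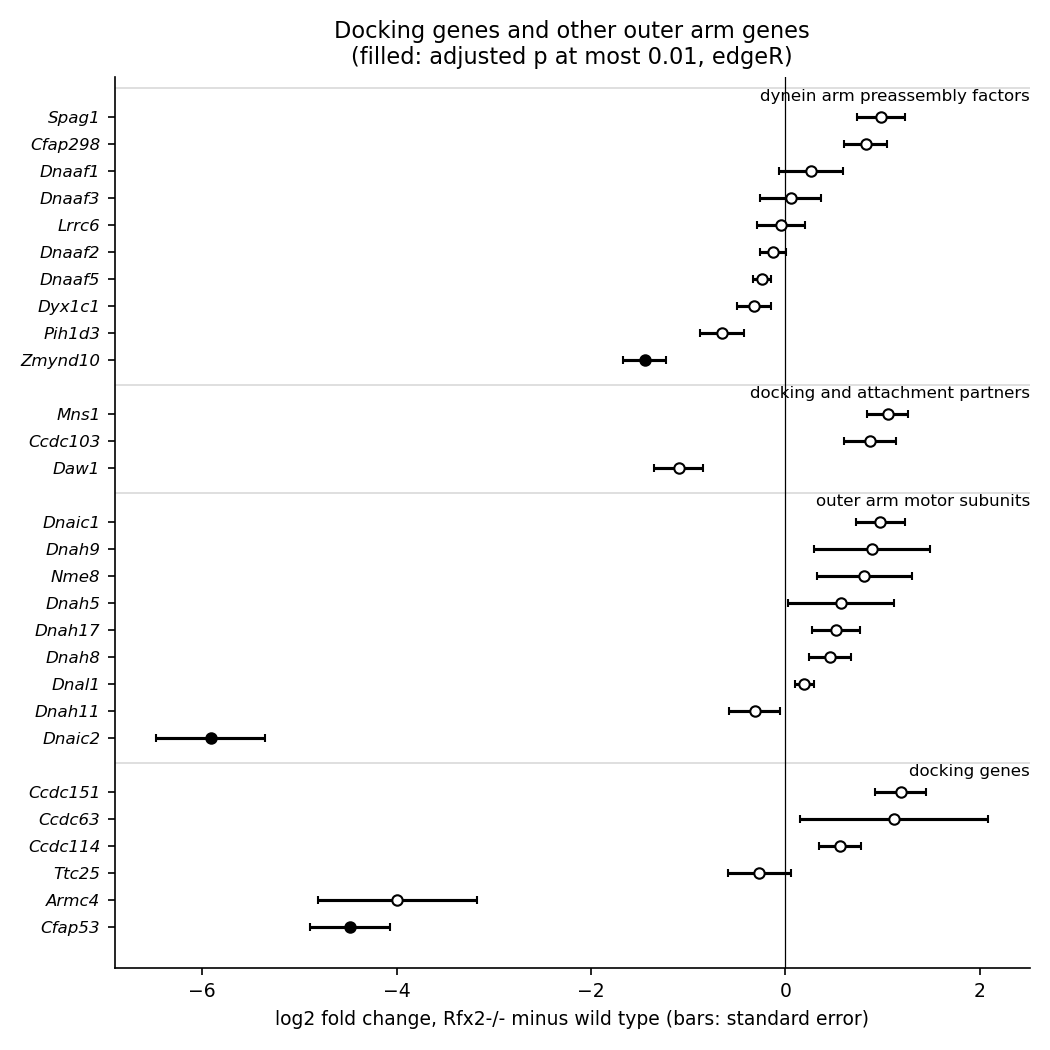
Log2 fold change (Rfx2-/- minus wild type, horizontal, with standard errors) of the docking genes and of the tested motor subunits, attachment partners and preassembly factors, 1 line per gene. Filled points, at an adjusted p of at most 0.01 in edgeR's test, are Cfap53, Dnaic2 and Zmynd10, and all lie on the lower side.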

How the data were processed

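Testis RNA of 5 wild type and 6 Rfx2-/- mice was analysed from 1 table of raw counts of 23074 genes. According to the authors and the submitters' processing notes (CASAVA 1.8.2, STAR 2.4, featureCounts 1.4.6, GRCm38), the deposited counts are reads on merged exons of protein coding isoforms, without reads that mapped to several places or overlapped several genes. The fit used edgeR 4.0.16 in R 4.3.3 (filterByExpr, TMM, glmQLFit and glmQLFTest, no covariates). A gene was called at 0.01 or less after Benjamini-Hochberg adjustment over all tested genes. The authors used DESeq. A count of 3 was the floor, which covers counting error only. Symbols and lengths came from GENCODE vM21, matching 22293 table entries and 106 of 106 listed symbols, and promoters from RefSeq (GRCm38.p6).

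Named genes were the 6 docking genes, genes of 3 pathway lists called over 2-fold, and the 2 genes nearest to each docking gene in pattern. Members and lists were chosen with earlier results of these data known. Alternatives were DESeq2 size factors, total counts, DESeq2 1.42.0 with its Wald test, voom in limma 3.58.1, a robust prior, other filters, a round spermatid marker score as covariate, other thresholds and each mouse left out. A pachytene marker score, and wild type replicates 3 and 5 left out together, were added after seeing the data. Methods were tested on simulated data. Python 3.11.15, SciPy 1.17.1 and matplotlib 3.10.9 were used for ratios and plots.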

Additional observations from a re-analysis of the deposited data

Results flagged for a closer look

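Armc4 in Rfx2-/- replicate 7, at 6.85 CPM, stood apart from the other Rfx2-/- mice on the CPM scale. The next highest mouse had 2.39 CPM, and this gap was 0.664 of the whole range of the 6 mice, above the 95% critical value of 0.625 of Dixon's test. It was the 1 value so marked in 12 groups of mice (6 genes in 2 genotypes), and chance marks about 1 in 20 groups. Dixon's test used CPM and was not run on log values, so the mark holds for the CPM scale only. The same mouse had the highest round spermatid marker sum, 716 CPM, and its part in the value was not tested.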

How the results depend on the processing

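Cfap53 was called lower in all 21 fits of the alternatives, with log2 fold changes from -5.25 to -4.16. The number of docking genes called lower was 1 in the analysis as reported. It was 2 with total counts as library sizes, with DESeq2's Wald test, with limma voom, with the round spermatid score, at 0.01 for the unadjusted p and at 0.05 for the adjusted p, and 3 with the pachytene score. The gene added was Armc4 throughout, with Ttc25 as the other addition under the pachytene score. The number called higher was 0 as reported and 1, Ccdc151, in each of those settings and with wild type replicates 3 and 5 left out. The pachytene score and the removal of both mice were chosen after seeing the data. With each mouse left out in turn, 1 to 2 genes were called lower and 0 to 0 higher, the 2 without Rfx2-/- replicate 7, and 0 to 11 pairs of genes differed in ratio. The 0 were the 6 analyses without an Rfx2-/- mouse, where the smallest p the exact permutation test can give is 0.00794. The smallest adjusted p was 0.0108, and 11 pairs were called at 0.05 in each of these 6. Without wild type replicate 1, 10 pairs were called. With each mouse left out, the log2 fold change of Ttc25 lay between -0.45 and 0.0059, the latter without wild type replicate 1 (edgeR adjusted p = 0.989). That of Ccdc63 turned to -0.57 with the pachytene score (edgeR adjusted p = 0.718). The cause was not tested. Over all fits, adjusted p ranged from 2.99e-05 to 0.0427 for Armc4 and from 0.000105 to 0.0505 for Ccdc151. Over all tested genes, 305 were called lower and 115 higher by edgeR, 911 and 1146 by DESeq2, and 682 and 367 by voom. The median of all genes was -0.05 on the log2 scale as reported and -0.22 with total counts as library sizes. The methods describe littermates of equal age as used where possible, but the labels name no litters, so no paired analysis was possible.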
